A study of Mus musculus with 2 samples.

Results

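Among 5260 cells sorted from neonatal mouse hypothalamus, 67 carried messenger RNA of both Neurod6 and the nuclear factor I genes. The rule took cells with at least 300 detected genes, at least 1 unique molecular identifier (UMI, 1 count per captured RNA molecule) of Neurod6, and a summed Nfia, Nfib and Nfix count of at least 2 UMIs. Of these members, 44 came from 2806 cells of the control library and 23 from 2454 of the Sim1 heterozygous library. Single cells were captured by Drop-seq, in which each cell shares a droplet with a barcoded bead that tags the 3′ ends of its RNA.

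The control group was Sim1-Cre;tdTomato+/- and the other group was Sim1-Cre;tdTomato+/-;Sim1+/-, which adds 1 mutant allele of Sim1, a transcription factor needed to form the paraventricular nucleus. Both were CD-1 mice aged P1 to P4, and each genotype was a pool of 6 pups sequenced as 1 library. Every cell had been sorted for tdTomato, the red protein switched on where the Sim1-Cre driver has been active. That sort aims at the Sim1 lineage, and hypothalamic cells outside it are represented only where they passed the sort. With 1 library per genotype, no test between genotypes was possible, and every interval here covers counting error only.

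NEUROD6 is a basic helix-loop-helix (bHLH) transcription factor of differentiating neurons, best known from excitatory neurons of the cortex and hippocampus. The nuclear factor I proteins NFIA, NFIB and NFIX bind DNA as dimers; they promote glial differentiation and, in neurons, mark cells born late in neurogenesis. In many regions of the developing nervous system, early-born neurons carry Onecut, Pou2f2 and Zfhx factors, whereas later-born neurons carry nuclear factor I, Neurod2, Neurod6 and Tcf4.

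The genes that set the rule lay on 3 chromosomes of the mm10 build (GENCODE M21). Neurod6 occupied chr6:55677822-55681263 on the minus strand, Nfia chr4:97772734-98118874 on the plus strand, Nfib chr4:82290173-82705750 and Nfix chr8:84699876-84800344 on the minus strand. All 3 nuclear factor I genes overlap annotated genes on the other strand, and the use of strand in counting is not stated in the sources used here. Their values chose the cells and are given only as a description. Neurod6 gave 103 UMIs in the control members and 57 in the Sim1 heterozygous members. At least 2 Neurod6 UMIs were present in 21 of 44 and 10 of 23 members, and the highest counts in a cell were 8 and 13. Nfib was the nuclear factor I gene found in most members, 37 of 44 and 22 of 23. Nfix was found in 31 of 44 and 10 of 23 members, and Nfia in 18 of 44 and 11 of 23. All 3 were detected together in 13 control and 3 Sim1 heterozygous members. Nfic, the fourth gene of the family and no part of the rule, gave 3 UMIs in the control members and 1 in the Sim1 heterozygous members, at 21.9 and 10.9 CPM (the UMIs of a gene per 1000000 UMIs of the cells summed), beside 20.2 and 18.9 CPM in the other cells.

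Many members sat at the edge of the rule. Exactly 1 Neurod6 UMI with 2 nuclear factor I UMIs admitted 9 control and 4 Sim1 heterozygous cells. Just outside it, 17 and 12 cells had Neurod6 with 1 nuclear factor I UMI, and 56 and 47 cells had 2 nuclear factor I UMIs with no Neurod6.

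The RefSeq promoters of 4 genes (GRCm38.p6, the 250 bases before the start of the transcript, 5′ to 3′ on the strand of the gene) show the sequence in front of Neurod6 and of genes that lead the description that follows, Zeb2, Prox1 and Asb4. Capitals mark TTGGC or GCCAA, the half-site of nuclear factor I on either strand, and CAGATG or CATCTG, an E-box that NEUROD proteins can bind.
Neurod6 (chr6:55681264-55681513, minus strand): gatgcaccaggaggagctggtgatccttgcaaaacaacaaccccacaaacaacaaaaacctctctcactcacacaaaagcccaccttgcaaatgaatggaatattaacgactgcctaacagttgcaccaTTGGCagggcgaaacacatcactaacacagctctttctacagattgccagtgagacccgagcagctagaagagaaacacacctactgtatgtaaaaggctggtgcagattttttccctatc
Zeb2 (chr2:45117443-45117692, minus strand): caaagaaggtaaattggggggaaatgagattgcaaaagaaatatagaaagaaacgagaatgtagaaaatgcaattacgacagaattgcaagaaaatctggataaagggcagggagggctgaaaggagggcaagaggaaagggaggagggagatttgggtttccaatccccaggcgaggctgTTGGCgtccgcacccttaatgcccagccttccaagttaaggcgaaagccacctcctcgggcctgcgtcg
Prox1 (chr1:190170828-190171077, minus strand): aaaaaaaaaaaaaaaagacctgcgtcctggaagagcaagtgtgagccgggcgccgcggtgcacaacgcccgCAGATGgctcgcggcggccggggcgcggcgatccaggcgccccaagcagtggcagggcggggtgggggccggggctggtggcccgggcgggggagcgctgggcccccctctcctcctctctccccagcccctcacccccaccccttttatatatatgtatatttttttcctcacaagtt
Asb4 (chr6:5383136-5383385, plus strand): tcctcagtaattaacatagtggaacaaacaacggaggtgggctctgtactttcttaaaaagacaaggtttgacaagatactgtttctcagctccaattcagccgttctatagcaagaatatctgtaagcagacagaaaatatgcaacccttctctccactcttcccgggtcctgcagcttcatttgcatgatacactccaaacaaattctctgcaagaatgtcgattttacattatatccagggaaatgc
The Neurod6 and Zeb2 windows each held 1 nuclear factor I half-site, the Prox1 window held 1 E-box, and neither word occurred in the Asb4 window. Zeb2 has 4 promoters in the RefSeq table and Prox1 and Asb4 have 2 each, of which the most upstream is printed. The half-site is short and common: it occurred in 41.5% of all 32851 RefSeq promoters of this length. It occurred in 15 of 30 promoters (50%) of the genes that led in members together with the 4 genes of the rule, of which 14 of 18 were in the table. The E-box occurred in 14.4% of all promoters and in 4 of those 30 (13.3%). A match is a run of letters in a window, and binding was not measured.

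The share of members was 1.57% in the control library (95% Clopper-Pearson interval 1.14% to 2.10%) and 0.937% in the Sim1 heterozygous library (0.595% to 1.40%), a ratio of 0.598. Members were deeper than other cells. Their median was 2854 UMIs in the control library (range 578 to 8732) beside 1764 in the other cells. In the Sim1 heterozygous library it was 4698 (range 1096 to 7645) beside 1569. When every cell was thinned at random to 1000 UMIs, 16 of 2442 control cells (0.655%) and 4 of 1704 cells of the Sim1 heterozygous library (0.235%) met the rule, a ratio of 0.358. Thinning left out 364 and 750 shallower cells, among them 1 control member and no Sim1 heterozygous member. The share was lower in the Sim1 heterozygous library under both counts, and with 1 library per genotype, library and genotype cannot be told apart.

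The overlap of the 2 sides of the rule is a description, since both chose the cells. Neurod6 was detected in 23.8% of the 185 control cells with at least 2 nuclear factor I UMIs (17.8% to 30.6%) and in 3.32% of the 2621 with fewer (2.67% to 4.08%). In the Sim1 heterozygous library the shares were 17.4% of 132 cells (11.4% to 24.99%) and 2.28% of 2322 (1.71% to 2.98%). After thinning they were 19.3% of 83 and 3.01% of 2359 control cells, and 6.78% of 59 (1.88% to 16.5%) and 2.13% of 1645 (1.49% to 2.95%) Sim1 heterozygous cells; the thinned intervals of the latter library overlapped. Cells with at least 5 UMIs of astrocyte or radial glia markers, which should lack Neurod6, gave it in 0 of 40 cells of the control library and 0 of 53 of the Sim1 heterozygous library. Those zeros allow shares of up to 7.5% and 5.66%, at median depths of 1267 and 948 UMIs.

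Neuronal RNA was found in members as in the other sorted cells. Stmn2, a microtubule regulator of growing axons, was found in 44 of 44 and 23 of 23 members, and Tubb3, the neuronal tubulin, in 41 of 44 and 20 of 23. In other cells Stmn2 was found in 2701 of 2762 and 2294 of 2431, and Tubb3 in 2450 of 2762 and 1924 of 2431, so these genes do not set the members apart. Slc17a6, the vesicular glutamate transporter VGLUT2, was found in 33 of 44 and 19 of 23 members. Its level was 562 CPM in control members beside 607 CPM in other control cells, and 686 beside 785 CPM in the Sim1 heterozygous library. Gad1, an enzyme of GABA synthesis, was found in no member, and its relative Gad2 in 3 of 44 and 4 of 23. Sim1 itself was detected in 10 of 44 control members (117 CPM, other cells 112 CPM) and in 5 of 23 Sim1 heterozygous members (76.2 CPM, other cells 91.9 CPM). The mutant allele still carried by the heterozygous cells was not told apart from the normal allele in these counts. The astrocyte and radial glia list gave 32 UMIs over 22 of 44 control members (233 beside 396 CPM in other cells) and 30 UMIs over 14 of 23 Sim1 heterozygous members (327 beside 520 CPM); no member had 5 or more. The oligodendrocyte list gave 3 and 2 UMIs, and the microglial and endothelial marker lists were at 0 UMIs in members of both libraries.

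Genes of the pallium and amygdala were not set apart in members as a sum, but Neurod2 was found in a larger share of members. The list summed to 211 beside 221 CPM in the control library and 272 beside 217 CPM in the Sim1 heterozygous library. Its UMIs were found in 20 of 44 and 13 of 23 members. Emx1 and Tbr1, transcription factors of the cortex, were at 0 UMIs in all 67 members; both were as rare elsewhere, Emx1 in 2 of 2762 and 0 of 2431 other cells and Tbr1 in 6 and 2. Neurod2, a close relative of Neurod6 that accompanies it in the cortex, was found in 9 of 44 control members and 46 of 2762 other control cells, and in 4 of 23 Sim1 heterozygous members and 22 of 2431 other cells. Lhx9, a marker of thalamic progenitors and neurons, was at 0 UMIs in members, whereas Tcf7l2 of the same list gave 20 UMIs in 2 control members. The thalamic list summed to 168 beside 229 CPM and 10.9 beside 76.1 CPM. Fezf1, a factor of the ventromedial hypothalamus, was at 0 UMIs, and its list summed to 51.1 beside 109 CPM and 87.1 beside 130.2 CPM, with UMIs in 7 of 44 and 6 of 23 members. Gh, the growth hormone gene of the pituitary, was detected in 13 of 44 control members and 938 of 2762 other control cells but in 0 of 23 and 0 of 2431 cells of the Sim1 heterozygous library. Its part in the differences between libraries was not tested.

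Members and other cells were then compared within each library by the log2 ratio of their CPM, with 1 UMI added to each sum. The cells were chosen by genes that are correlated with others in the same cells, so these ratios describe the group and are no test of it. Of 10045 genes with at least 50 UMIs in each library, 291 (2.90%) were at least 2-fold higher in members of both libraries and 91 (0.906%) were at least 2-fold lower. These counts turn on rare genes, because members held 2.10% and 1.70% of the UMIs of their libraries and an added UMI weighs more on the smaller sum. With a pseudocount in proportion to the totals, 79 were higher and 555 lower. Among the 5086 genes with at least 200 UMIs in each library, 24 (0.472%) were higher and 53 (1.04%) were lower. The median log2 ratio over all genes was 0.19 and 0.21. In the scatter of both libraries, the 14 higher and 10 lower genes named by their counting intervals lie far from that centre.

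**Figure D1:**
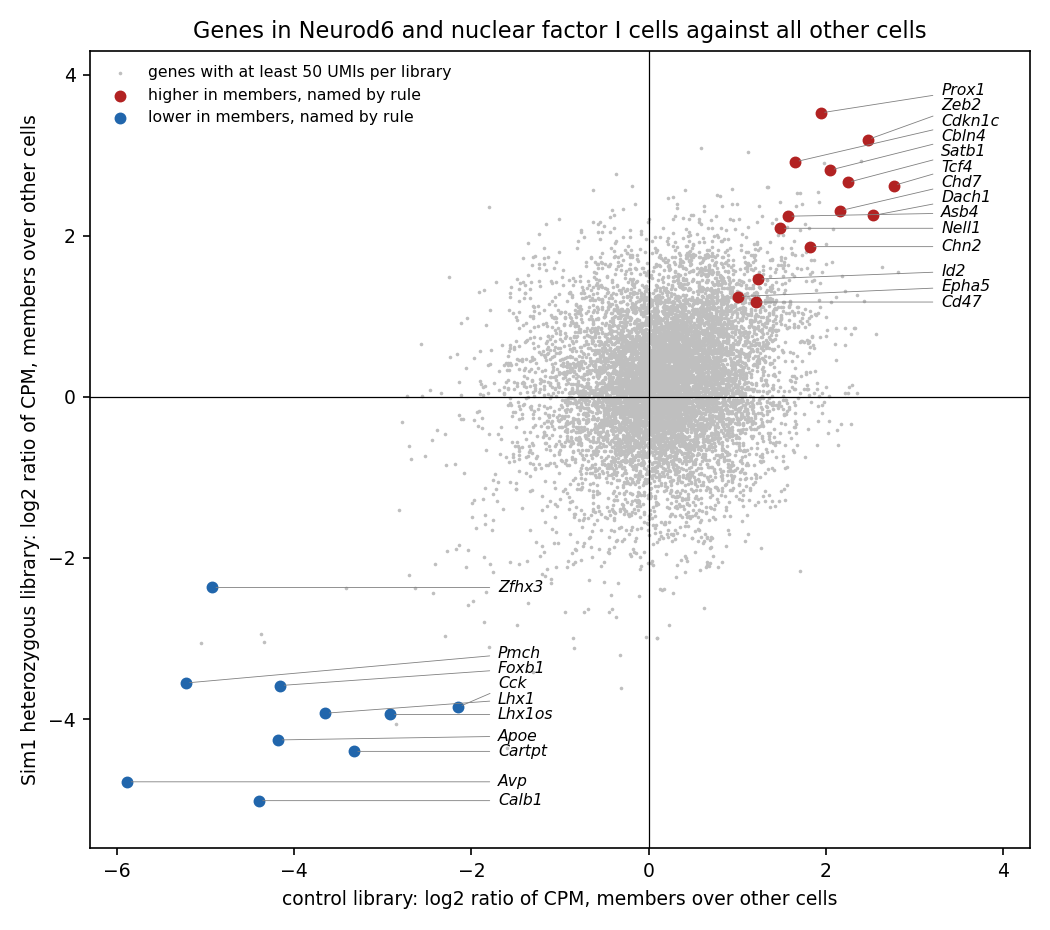
Each point is a gene with at least 50 UMIs in each library, by its log2 ratio of CPM in members over other cells in the control library (x axis) and the Sim1 heterozygous library (y axis). Red points are the 14 genes named as higher and blue points the 10 named as lower; Tcf4 lies at 2.76 and 2.63, and genes at 0 UMIs in members, such as Calb1, are placed by the added UMI.

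The higher genes are described first for nuclear proteins and then for the rest. Tcf4 encodes a class I bHLH protein, the kind with which NEUROD proteins form dimers. It gave 145 UMIs over 38 of 44 control members, 1058 CPM (95% Poisson interval 892 to 1244) beside 157 CPM in other cells. In the Sim1 heterozygous library it gave 69 UMIs over 20 of 23 members, 751 CPM (585 to 951) beside 123 CPM. The log2 ratios were 2.76 (2.50 to 3.01) and 2.63 (2.23 to 2.97), with the narrowest intervals of the 14 higher genes. Tcf4 was thus present in nearly all members, and after thinning it was still found in 67.4% and 47.8% of them beside 12.1% and 10.7% of other cells. The other widely expressed partners were less distinct. Tcf12 was at 51.1 beside 32.1 CPM and 43.6 beside 44.9 CPM. Tcf3 gave 5 UMIs in control members and 0 in Sim1 heterozygous members. Id2, an inhibitor that binds such proteins and keeps them from DNA, was at 277 beside 121 CPM in the control library (log2 ratio 1.23) and at 240 beside 90.6 CPM in the Sim1 heterozygous library (1.46). The genes for the activator and the inhibitor were thus both higher in members of both libraries.

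Zeb2, a zinc-finger repressor active in migrating and maturing neurons, was detected in 12 of 44 control members, at 139 CPM (83.4 to 216) beside 26.1 CPM, a log2 ratio of 2.47 (1.64 to 3.09). In the Sim1 heterozygous library it was detected in 10 of 23 members, at 174 CPM (99.6 to 283) beside 20.01 CPM, a log2 ratio of 3.20 (2.26 to 3.89). Prox1, a homeodomain factor known from hippocampal granule cells and lymphatic vessels, was at 102 CPM beside 28.3 CPM in the control library (1.94) and at 152 beside 13.97 CPM in the Sim1 heterozygous library (3.53). Of the 14 Prox1 UMIs in the latter members, 8 came from 1 cell, and without that cell the ratio was 2.43. Zeb2 and Prox1 have annotated antisense genes, Zeb2os and Prox1os. Because the use of strand in counting is not stated, it is not known whether antisense reads were added to the Zeb2 and Prox1 counts. Cdkn1c, Satb1, Dach1, Epha5, Nell1, Chn2, Foxb1, Pmch, Zfhx3 and Nap1l5 likewise overlap genes on the other strand.

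Further nuclear proteins among the named genes rested on 9 to 17 UMIs per library. Satb1, a chromatin organiser, was at 80.2 and 98.0 CPM in members, beside 18.3 and 17.0 CPM in other cells. Dach1, a transcription cofactor, was at 124 and 109 CPM beside 22.5 and 24.9 CPM. Chd7, a chromatin remodeller, was at 102 and 98.0 CPM beside 24.3 and 21.7 CPM. In all 3 the lower bound of the log2 ratio stayed above 1.00 in both libraries. Cdkn1c, a brake on the cell cycle with a role in differentiating neurons, was better sampled. It gave 56 UMIs in 16 of 44 control members, 408 CPM beside 132 CPM (log2 ratio 1.65, interval 1.21 to 2.02), and 60 UMIs in 15 of 23 Sim1 heterozygous members, 653 CPM beside 87.6 CPM (2.92, interval 2.49 to 3.29).

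Genes of the cell surface and of signalling followed. Asb4, a component of ubiquitin ligases known from neurons of the arcuate nucleus, was found in 10 of 44 control members, at 226 CPM beside 78.4 CPM (log2 ratio 1.57). It was found in 9 of 23 Sim1 heterozygous members, at 501 CPM beside 108 CPM (2.24). Asb4 came from few cells with many UMIs, and in the 21 control members with at least 2 Neurod6 UMIs its ratio was -0.17. Cbln4, a secreted organiser of synapses, was at 102 and 109 CPM beside 26.3 and 16.8 CPM. Nell1, a secreted glycoprotein, was at 168 and 229 CPM beside 62.3 and 55.9 CPM. Epha5, a receptor of ephrins that guides axons, was at 598 and 632 CPM beside 300.4 and 271 CPM, and Cd47, a surface signal that holds off phagocytes, at 635 and 599 CPM beside 276 and 269 CPM. Chn2, a GTPase regulator downstream of guidance receptors, was at 94.8 and 109 CPM beside 28.8 and 32.7 CPM. Epha5 and Cd47 were found in most members (28 and 27 of 44, and 17 and 17 of 23), and their differences were the smallest of the named genes.

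Some genes were nearly missing from members. Calb1, the calcium buffer calbindin, was at 0 UMIs in members of both libraries, beside 154 and 352 CPM in other cells. Set against a floor of 3 UMIs per library, it was at least 7.04-fold and at least 10.8-fold lower. Foxb1, the forkhead factor that marks mammillary neurons, gave 3 UMIs in control members and 6 in Sim1 heterozygous members, 21.9 beside 521 CPM and 65.3 beside 914 CPM. Lhx1, a LIM-homeodomain factor of the same nucleus, was at 14.6 beside 274 CPM (log2 ratio -3.65, interval -7.28 to -2.38) and 21.8 beside 497 CPM (-3.93, interval -7.56 to -2.66). Its neighbour Lhx1os was at 29.2 beside 275 CPM and 21.8 beside 502 CPM. Of 8 measured mammillary genes, 3 were at least 2-fold lower in both libraries (Foxb1, Lhx1 and Hopx) and none was higher. Among all measured genes, 0.906% were lower and 2.90% higher. The 14 listed mammillary genes summed to 758.5 beside 1712 CPM and 936 beside 2830 CPM. At least 1 of their UMIs was found in 33 of 44 and 19 of 23 members, and in 68.1% and 77.5% of other cells. Barhl2 and Lmx1a were not measured, because each had fewer than 50 UMIs in at least 1 library. Members of the control and Sim1 heterozygous libraries gave 5 and 5 UMIs of Barhl2 and 5 and 4 UMIs of Lmx1a. Members held only 2.10% and 1.70% of all UMIs of their libraries. Both genes thus went the other way, higher in members in at least 1 library, on few UMIs. Cells that met 1 side of the rule were also low in Foxb1, Lhx1 and Calb1. With Neurod6 alone, Foxb1 was at 21.3 and 156 CPM, Lhx1 at 8.5 and 121 CPM and Calb1 at 29.8 and 56.8 CPM. With nuclear factor I alone, Foxb1 was at 123 and 236 CPM, Lhx1 at 40.04 and 105 CPM and Calb1 at 60.1 and 67.3 CPM. Cells that met neither side had 565 and 973 CPM of Foxb1, 299 and 529 CPM of Lhx1 and 165 and 376 CPM of Calb1. Apoe, an apolipoprotein of glia, was at 0 UMIs in members, beside 132 and 208 CPM in other cells. Without the cells with glial markers, its log2 ratio with the added UMI went from -4.18 and -4.26 to -1.71 and -0.36.

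Hormone and neuropeptide genes were low as a group. Of 17 measured neuropeptide genes, 9 were at least 2-fold lower in members of both libraries and none was higher. Among all measured genes, 0.906% were lower and 2.90% higher. The neuropeptide genes had a median log2 ratio of -1.86 and -2.54, beside 0.19 and 0.21 for all genes. Their summed level was 861 CPM (712 to 1031) in control members beside 9130 CPM in other control cells, and 621 CPM (470.1 to 804) beside 4102 CPM in the Sim1 heterozygous library. Most of the level in other cells was Avp (vasopressin), Oxt (oxytocin) and Pmch (melanin-concentrating hormone). With these 3 left out, the sums were 737 beside 1672 CPM and 555 beside 2134 CPM. Over all listed peptides, cells with Neurod6 alone were at 1717 and 1263 CPM, and cells with nuclear factor I alone at 4064 and 748 CPM. Cells that met neither side had 9736 and 4368 CPM, so a lower level was not particular to members. Avp was at 87.5 beside 5610 CPM and 43.6 beside 1495 CPM. Its 12 UMIs in control members were spread over 11 cells with at most 2 in a cell. Pmch was at 29.2 beside 1365 CPM and 21.8 beside 383 CPM. Cck (cholecystokinin) was at 102 beside 485 CPM and 32.7 beside 629 CPM. Cartpt gave 1 UMI and 0 UMIs in members, beside 146 and 230.1 CPM in other cells; control cells with Neurod6 alone and with nuclear factor I alone had 12.8 and 2.86 CPM. Sst (somatostatin) was the exception among the abundant peptides, at 190 beside 136 CPM (log2 ratio 0.53, interval -0.15 to 1.04) and 218 beside 163 CPM (0.49, interval -0.30 to 1.06), from 8 of 44 and 3 of 23 members. Scg2, a granin of secretory vesicles, was higher in members, at 2130 beside 1188 CPM and 2493 beside 1386 CPM (log2 ratios 0.85 and 0.85).

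Early-born factors were low in members, and the late-born factor Tcf4 was high. Of 5 measured early factors, Onecut2, Pou2f2, Zfhx3 and Zfhx4 were at least 2-fold lower in members of both libraries, and Zfhx2 was not. That limit was passed by 0.906% of all measured genes. Zfhx3, a large zinc-finger homeodomain factor, was at 0 UMIs in control members beside 222 CPM, at least 10.1-fold lower, and gave 3 UMIs in Sim1 heterozygous members, 32.7 beside 224 CPM. Pou2f2 was at 29.2 beside 149 CPM and 21.8 beside 196 CPM, and Onecut2 at 21.9 beside 106 CPM and 10.9 beside 86.4 CPM. Zfhx4 was at 43.8 beside 155 CPM in the control library and at 0 UMIs beside 223 CPM in the Sim1 heterozygous library. Summed over the 7 listed genes, the early factors reached 117 CPM (66.7 to 190) in control members and 98.0 CPM (44.8 to 186) in Sim1 heterozygous members, beside 701 and 785 CPM in other cells. After thinning, 3 of 43 and 3 of 23 members had any of these UMIs, beside 41.4% and 47.2% of other cells. The late factors outside the rule, Tcf4 and Neurod2, summed to 1138 CPM (966 to 1331) beside 166 CPM and to 795 CPM (623 to 999) beside 128 CPM. Tcf4 gave 145 of the 156 and 69 of the 73 UMIs of that sum and is a marker of the label, Neurod2 had too few UMIs to be measured, and nuclear factor I and Neurod6 are themselves late factors. The late side is thus mainly 1 gene and the choice of cells.

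Cells that met 1 side of the rule give the level of each gene on that side. In cells with Neurod6 and fewer than 2 nuclear factor I UMIs (87 control, 53 Sim1 heterozygous), the early factors were at 183 and 220.0 CPM. In cells with at least 2 nuclear factor I UMIs and no Neurod6 (141 and 109), they were at 197 and 206 CPM. Cells that met neither side stood at 752 and 833 CPM. The early factors were thus low in every class that met 1 side of the rule, and the intervals of the members overlapped those of both. The late factors were at 595 and 369 CPM with Neurod6 alone, 858 and 497 CPM with nuclear factor I alone and 107 and 101 CPM in cells that met neither side, all below the 1138 and 795 CPM of the members. The class with nuclear factor I alone also held glial RNA. Its astrocyte and radial glia list was at 1733 and 1607 CPM, beside 233 and 327 CPM in members, and its Apoe at 778 and 774 CPM. Of its cells, 10.4% lay in a cluster led by Ednrb, Apoe and Fabp7, so its values are not those of neurons alone.

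**Figure D2:**
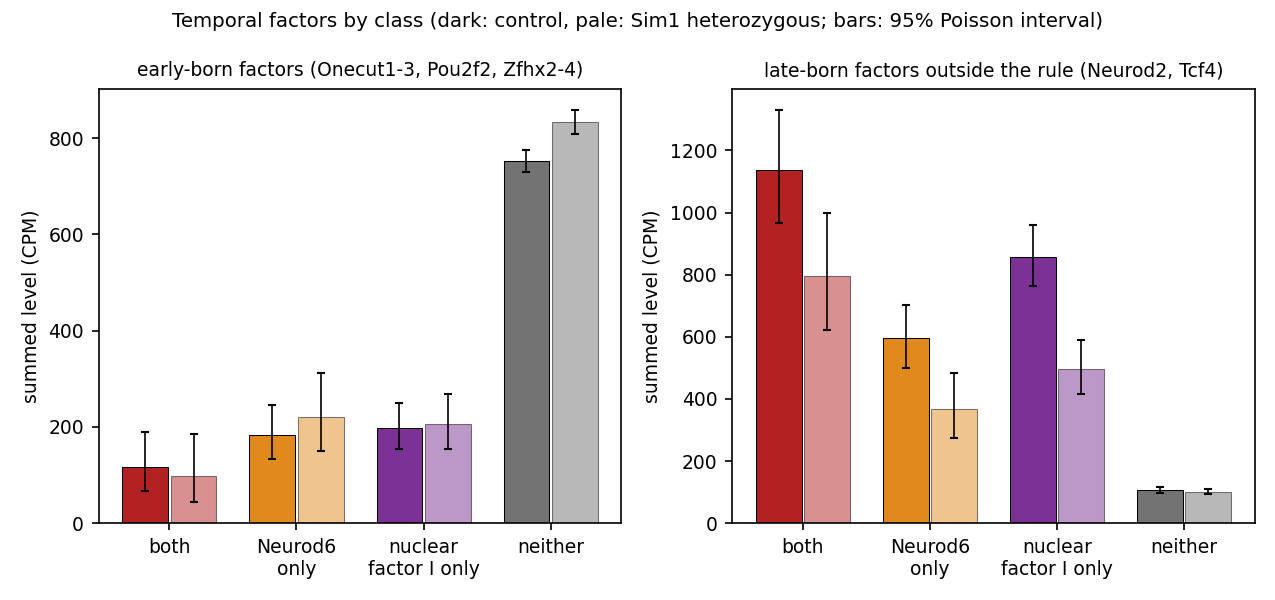
Summed CPM of the early-born factors (left) and of Tcf4 and Neurod2 (right) in members (both), cells with Neurod6 and under 2 nuclear factor I UMIs, cells with at least 2 nuclear factor I UMIs and no Neurod6, and the rest (neither); dark bars are the control library, pale bars the Sim1 heterozygous library and lines the 95% Poisson interval. Early factors stand at 117 and 98.0 CPM in members and 752 and 833 CPM in the cells that met neither side.

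Single genes divided between the classes. Prox1 followed nuclear factor I: it gave 1 UMI in control cells with Neurod6 alone (4.25 CPM) and 0 in the Sim1 heterozygous ones, beside 97.2 and 86.0 CPM in cells with nuclear factor I alone. Zeb2 was at 72.3 and 63.9 CPM with Neurod6 alone and at 126 and 161 CPM with nuclear factor I alone. Cdkn1c was at 128 and 92.3 CPM with Neurod6 alone, close to the 120 and 77.9 CPM of cells that met neither side, and at 335 and 262 CPM with nuclear factor I alone. Asb4 was high on either side, at 225 and 689 CPM with Neurod6 alone and 203 and 378 CPM with nuclear factor I alone. Satb1 was at 89.25 and 35.5 CPM with Neurod6 alone and at 51.5 and 74.8 CPM with nuclear factor I alone. In the same order, Dach1 was at 59.5 and 99.4 CPM and at 71.5 and 101 CPM. Chd7 was at 34.0 and 28.4 CPM and at 109 and 78.5 CPM, and Epha5 at 399.5 and 376 CPM and at 621 and 815 CPM. In at least 1 library, Satb1, Dach1, Chd7 and Epha5 each stood near or above the members on 1 side alone. Cbln4 was near the level of the other cells on each side alone (25.5 and 35.5 CPM, 22.9 and 29.9 CPM) and reached 102 and 109 CPM where both were present. The Cbln4 values of the members rest on 14 and 10 UMIs.

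**Figure D3:**
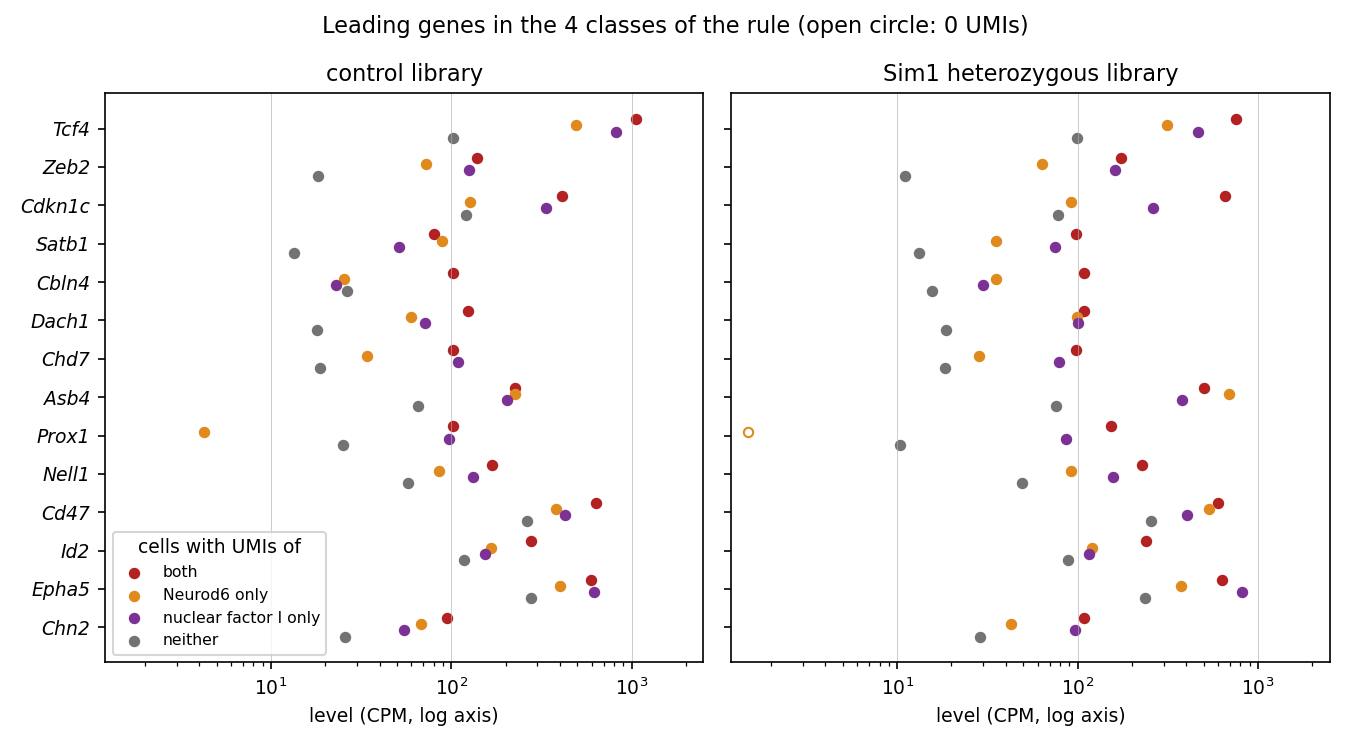
CPM (log axis) of the 14 named higher genes in the 4 classes, in the control library (left) and the Sim1 heterozygous library (right); open circles are genes at 0 UMIs. Red points (members) stand right of grey points (neither) for all 14 genes in both libraries, and Prox1 is far left in cells with Neurod6 alone.

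Some other transcription factors also differed between members and all other cells. Neurod1, a bHLH factor of early neuronal differentiation, was at 109 beside 27.6 CPM (log2 ratio 2.07, interval 1.12 to 2.75) and 109 beside 37.2 CPM (1.68, interval 0.47 to 2.46). Bhlhe22 gave 6 and 4 UMIs, too few to be measured. The listed neuronal bHLH genes outside the rule summed to 394 and 348 CPM in members. Their sums were 340 and 447 CPM with Neurod6 alone and 515 and 550 CPM with nuclear factor I alone, so their level was not particular to members. Nr2f2, the nuclear receptor COUP-TFII, was at 226 beside 65.1 CPM and 131 beside 48.1 CPM, and Nkx2-4, a homeodomain factor of the ventral forebrain, at 94.8 beside 38.8 CPM and 196 beside 46.1 CPM. Zic1 and Zic4, neighbouring zinc-finger genes, were at 0 UMIs in members, beside 148 and 89.7 CPM of Zic1 and 152 and 83.8 CPM of Zic4 in other cells. Of 8 measured paraventricular factors none was at least 2-fold higher or lower in both libraries. Otp, a homeodomain factor of paraventricular neurons, was at 175 beside 353 CPM in the control library and at 261 beside 224 CPM in the Sim1 heterozygous library, from 11 of 44 and 5 of 23 members.

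Receptor and signalling genes gave smaller sets. Nos1, the neuronal nitric oxide synthase, was at 43.8 beside 12.8 CPM and 109 beside 15.9 CPM. Htr2c, the serotonin receptor 2C that acts in feeding circuits, was at 36.5 beside 8.14 CPM and 87.1 beside 12.7 CPM, from 4 of 44 and 5 of 23 members. Grin3a, a subunit of NMDA receptors, was at 197 beside 95.7 CPM and 261 beside 120.0 CPM. The AMPA receptor gene Gria2 was at 824 beside 1284 CPM and 817 beside 1959 CPM (log2 ratios -0.63 and -1.24). Nefl, the light neurofilament of large axons, was at 627 beside 1054 CPM and 381 beside 1373 CPM. Nefl overlaps Nefm on the other strand in the annotation, and Nefm was at 248 beside 401 CPM and 142 beside 553 CPM. Irx3 and Irx5, named in the title of the series, gave UMIs in 2 and 0 of 44 control members and in 0 and 0 of 23 Sim1 heterozygous members, so no difference between the libraries was detectable at this depth.

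The members were not alike. Cells were clustered without the 4 genes of the rule, and members fell in 4 of 14 clusters: 32 in a cluster led by Asb4, Calcr and Nr2f2, 33 in a cluster led by Nfia, St18 and Neurod6, and 1 in each of 2 others. The split was similar in the libraries, with 20 and 22 control members and 12 and 11 Sim1 heterozygous members in the 2 main clusters. Members were 3.78% and 4.73% of the cells of those clusters. Depth differed with it: the median was 4106 UMIs in members of the Asb4 cluster and 1826 in those of the Nfia cluster, and its part in the split was not tested. Both clusters were made from gene expression in these same cells, so their differences are a description. Sim1 was also left out of the clustering.

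Asb4 and Prox1 lay on opposite sides. Asb4 was found in 17 of 32 members of the Asb4 cluster and 2 of 33 of the Nfia cluster, whereas Prox1 was found in 1 of 32 and 13 of 33. Over all 67 members, 17 had Asb4 without Prox1, 12 had Prox1 without Asb4, 2 had both and 36 had neither. Of the 5193 other cells, 457 had Asb4 alone, 118 had Prox1 alone, 13 had both and 4605 had neither. At such frequencies few cells would hold both even if the genes were unrelated, and the overlap was not tested. Otp was found in 13 of 32 and 3 of 33, and Neurod2 in 11 of 32 and 2 of 33. Zeb2 (9 of 32, 13 of 33), Nos1 (3 of 32, 7 of 33) and Pou3f3 (4 of 32, 10 of 33) had counts on the side of the Nfia cluster, and no difference was tested. Tcf4 (31 of 32, 26 of 33), Slc17a6 (24 of 32, 28 of 33), Cdkn1c (14 of 32, 17 of 33) and Sim1 (7 of 32, 7 of 33) were found on both sides.

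**Figure D4:**
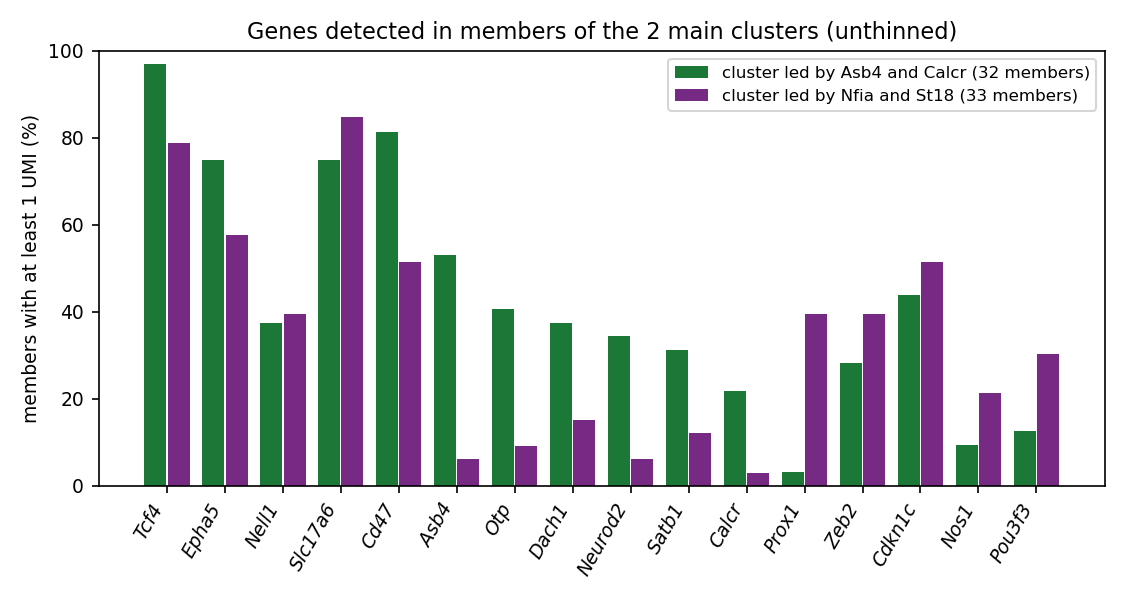
Percent of members with at least 1 UMI of each gene, without thinning, in the cluster led by Asb4 and Calcr (32 members, median 4106 UMIs) and the cluster led by Nfia and St18 (33 members, median 1826 UMIs). Asb4 is found in 17 of 32 and 2 of 33 members, and Prox1 in 1 of 32 and 13 of 33.

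Members had more members around them than their share of all cells. Among the 20 nearest neighbours of each cell, found without the genes of the rule, 14.1% were members for control members and 15.4% for Sim1 heterozygous members, where members made up 1.27% of all cells. The shares were 6.09% and 6.79% for cells with Neurod6 alone and 7.41% and 8.49% for cells with nuclear factor I alone. A share above 1.27% was thus not particular to members. For cells that met neither side of the rule the shares were 0.580% and 0.593%. Cells with nuclear factor I alone gave 24.5% and 28.3% of the neighbours of members, and made up 4.75% of all cells. Cells that met neither side, 91.3% of all cells, were still the most frequent neighbours, at 48.6% and 44.3%. At least 1 member neighbour was found for 36 of 44 and 19 of 23 members. Depth was not matched in these shares.

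The last comparison set the 23 Sim1 heterozygous members against the 44 control members. It compares 2 libraries, and the other cells of the same libraries give the difference they carry in general. Of 899 genes with at least 50 UMIs over the members, 67 (7.45%) were at least 1.5-fold higher in the Sim1 heterozygous library and 47 (5.23%) were at least 1.5-fold lower. The median log2 ratio of these genes was 0.02 in members and -0.03 in other cells. Under median-of-ratios scaling, the counts were 55 and 62.

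Of the 8 genes named as higher, 7 were also higher in other cells of the Sim1 heterozygous library. Tro, a membrane-associated MAGE family protein, was at 168 CPM in control and 436 CPM in Sim1 heterozygous members (log2 ratio 1.35, interval 0.60 to 2.18), with 0.40 in other cells. Nap1l5, an imprinted gene related to histone chaperones, was at 1612 and 2809 CPM (0.80, interval 0.54 to 1.07), with 0.33 in other cells. Asb4 was at 226 and 501 CPM (1.13, interval 0.46 to 1.85), with 0.46 in other cells. Ubb, a ubiquitin gene, had nearly the same ratio in members (0.85) as in other cells (0.69). Rnd3, which encodes a small GTPase, was at 160 and 392 CPM in members (1.26, interval 0.48 to 2.12) and at 129 and 125 CPM in other cells (-0.04). Stip1, a co-chaperone of heat shock proteins, was at 168 and 414 CPM, Ensa, a phosphatase inhibitor, at 139 and 338 CPM, and Tmx4, a thioredoxin of the endoplasmic reticulum, at 328 and 642 CPM. Their ratios in other cells were 0.29, 0.53 and 0.12. Rnd3 was the gene of these 8 whose ratio in other cells had the opposite sign, with an interval there of -0.19 to 0.10.

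The 8 genes named as lower had smaller or opposite ratios in other cells. Cd200, an immunoglobulin protein of the neuronal surface, was at 664 CPM in control and 348 CPM in Sim1 heterozygous members (log2 ratio -0.90, interval -1.56 to -0.33), with 0.00 in other cells (interval -0.07 to 0.08). Elavl3, an RNA-binding protein of neurons, was at 722 and 392 CPM (-0.86, interval -1.47 to -0.32), with -0.19 in other cells. Cdk5r1, the activator of the kinase CDK5, was at 729 and 425 CPM (-0.76), with -0.38 in other cells. Maged1, Map9, a microtubule-associated protein, and Basp1, a protein of growing axons, had ratios of -0.86, -0.73 and -0.38 in members and -0.30, -0.17 and -0.24 in other cells. Eef1g, a translation elongation factor, was at 292 and 131 CPM (-1.08), and Nefl at 627 and 381 CPM (-0.69); both were higher in the other cells of the Sim1 heterozygous library. Basp1 was named by its narrow interval and lies below the 1.5-fold limit.

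**Figure D5:**
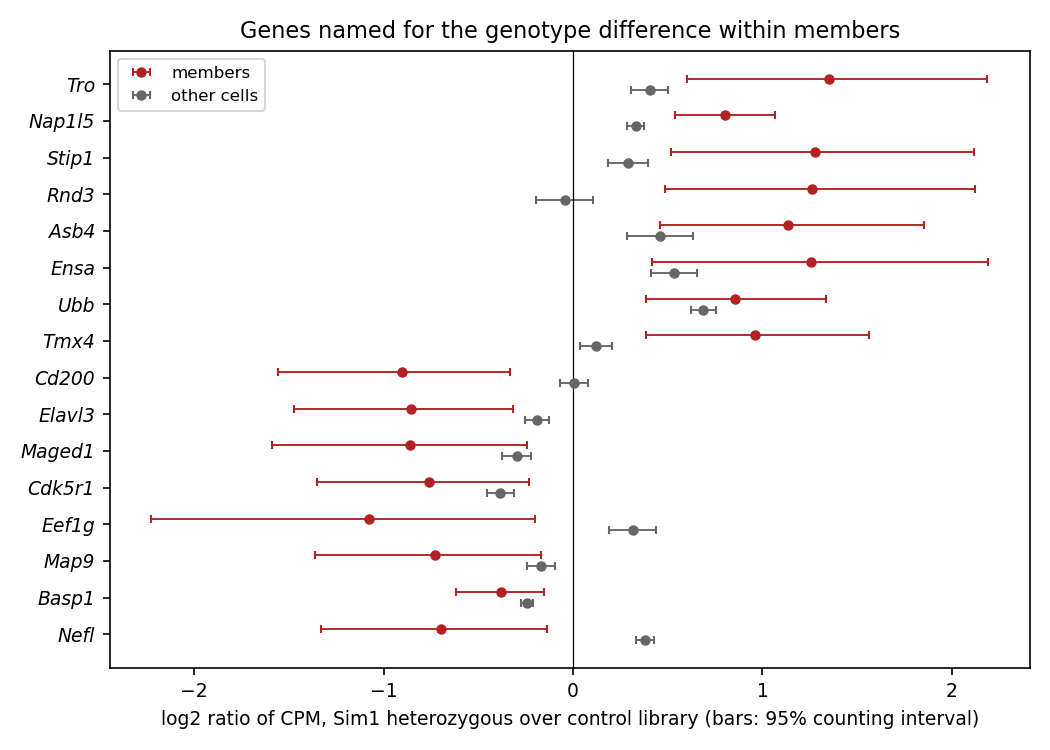
Log2 ratio of CPM, Sim1 heterozygous over control library, for the 16 named genes in members (red) and in all other cells (grey); lines are the 95% counting interval and there is 1 library per genotype. Eef1g and Nefl lie left of 0 in members (-1.08 and -0.69) and right of 0 in other cells (0.31 and 0.38).

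Among the genes of the rule, whose levels the rule holds above its limits, Neurod6 was at 751 and 621 CPM in control and Sim1 heterozygous members and Nfia at 190 and 163 CPM. Nfib was at 693 and 457 CPM (log2 ratio -0.58, interval -1.16 to -0.06), with -0.06 in other cells. Nfix was at 423 and 185 CPM (-1.14, interval -2.07 to -0.39), with 0.04 in other cells. Sim1 heterozygous members were deeper (median 4698 beside 2854 UMIs), and the same UMI limit is a lower CPM in a deeper cell. The part of depth in these ratios was not tested. The late factors Tcf4 and Neurod2 summed to 1138 and 795 CPM (-0.51, interval -0.94 to -0.11), with -0.37 in other cells. The energy balance list, which holds Asb4, summed to 408 and 860 CPM (1.07, interval 0.56 to 1.60), with 0.43 in other cells. The immediate early and stress list summed to 1415 and 2069 CPM (0.55, interval 0.25 to 0.84), with 0.45 in other cells. GABAergic genes summed to 29.2 and 119.8 CPM (1.84, interval 0.28 to 4.14), from 4 and 11 UMIs. The early factors summed to 117 and 98.0 CPM, with intervals that overlapped. The neuropeptides summed to 861 and 621 CPM in members, while other cells went from 9130 to 4102 CPM. Mitochondrial genes made up 1.12% and 0.792% of UMIs in members of the 2 libraries and 1.14% and 1.04% in other cells.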

How the data were processed

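Counts were UMI counts per gene and cell, deposited by the authors without normalization as 1 table per library and a merged table with identical values, which was read. Per the submitters' processing notes, STAR 2.6.0b, Picard, bcl2fastq and Seurat 3 were used with the mm10 build; the counter, annotation, use of strand and cell calling are, for these tables, not given in the sources used here. In all it held 2807 control and 2476 Sim1 heterozygous barcodes, none shared; 1 and 22 with under 300 detected genes were left out, which left 6524704 and 5390356 UMIs (medians 1772 and 1583 per cell). No doublet caller was run; cells above the 95th percentile of UMIs (4 control and 6 Sim1 heterozygous members) were left out as an alternative.

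UMIs were summed over cells of a class and library and given as CPM with exact Poisson 95% intervals. Ratios took a pseudocount of 1 UMI and conditional exact binomial 95% intervals, and shares Clopper-Pearson intervals; a count of 0 was bounded with 3 counts of the total. All cover counting error only, since each genotype is 1 pooled library, and no p-value was computed. Named genes were the 14 higher and 10 lower in members, and 8 in each direction between libraries, with the interval bound farthest from 0 (the smaller of the 2 libraries for members), the label's markers Zeb2, Asb4 and Tcf4, and up to 4 genes of each of 38 lists; mitochondrial, ribosomal protein, haemoglobin, Y-linked and unnamed genes and Xist and Tsix were not named, and genes with fewer than 50 UMIs are named only with their counts. The members and lists were chosen with earlier results of these data known. Clustering used 2000 variable genes, 30 principal components, 20 neighbours and the Leiden method at resolution 1 (scanpy 1.11.5, leidenalg 0.10.2, scikit-learn 1.9.0). The genes of the rule, Sim1, Irx genes, mitochondrial genes, Xist, Tsix, Ddx3y, Eif2s3y, Kdm5d and Uty were left out of it. Of the gene symbols, 94.3% matched GENCODE M21. The interval code was tested on simulated data (Python 3.11.15, numpy 2.4.6, scipy 1.17.1). Alternatives covered both limits of the rule, the filters, the pseudocount, scaling, depth and the reference cells.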

Additional observations from a re-analysis of the deposited data

Results flagged for a closer look

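Eef1g was lower in Sim1 heterozygous members than in control members (log2 ratio -1.08, 40 and 12 UMIs) and higher in the other cells of the same library (0.31). Nefl was lower in Sim1 heterozygous members (-0.69, 86 and 35 UMIs) and higher in the other cells (0.38); in members with at least 2 Neurod6 UMIs it stood at 0.11. In both genes members and other cells went opposite ways between the same 2 libraries, and neither difference was tested.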

How the results depend on the processing

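No paired analysis was possible because each genotype has 1 library. The shares of members (1.57% control, 0.937% Sim1 heterozygous) moved to 0.748% and 0.407% with at least 2 Neurod6 UMIs, to 2.17% and 1.43% with 1 nuclear factor I UMI, to 0.655% and 0.235% after thinning, and in the control library to 1.03% with at least 3 nuclear factor I UMIs; the Sim1 heterozygous share was lower each time. The count of genes 2-fold higher in members (291) became 816 with at least 2 Neurod6 UMIs, 532 with at least 3 nuclear factor I UMIs, 177 with 1 nuclear factor I UMI, 1088 with a filter of 20 UMIs, 24 with 200 UMIs and 152 with a pseudocount of 0.5. The count of lower genes (91) became 53 with 200 UMIs and 296 with a pseudocount of 0.5. A pseudocount in proportion to the totals, and a reference of cells without Neurod6 and with under 2 nuclear factor I UMIs, were chosen after seeing the data: the first gave 79 higher and 555 lower, the second 307 and 95. The higher share of all called genes was 76.2%, and 93.04%, 88.4%, 92.3%, 31.2%, 33.9% and 12.5% with at least 2 Neurod6 UMIs, 3 nuclear factor I UMIs, the filters of 20 and 200 UMIs, the pseudocount of 0.5 and the proportional one; it was 65.8% with 1 nuclear factor I UMI and 86.2% without cells above the 95th percentile of UMIs. Between genotypes the 67 higher and 47 lower genes became 38 and 23 with at least 2 Neurod6 UMIs, 98 and 86 with 1 nuclear factor I UMI, 354 and 322 with a filter of 20 UMIs, 2 and 1 with 200 UMIs, and 43 and 31 without cells above the 95th percentile; fewer or more genes were measured under each. Reversed values were Asb4 in control members (-0.17) and Nefl between genotypes (0.11), both with at least 2 Neurod6 UMIs; the cause was not tested. Of 576 values for 48 ratios of named genes in members, 567 kept their direction and size within their interval. So did 157 of 160 values for 16 genotype ratios and 65 of 72 for summed lists. These tallies include the filters of 20 and 200 UMIs, which change only which genes are counted. Every ratio under those 2 filters was thus the same by construction. Depth limits the members to 137115 and 91840 UMIs, so that a gene at 0 UMIs could lie at up to 21.9 and 32.7 CPM.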

Other observations

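Secretory genes were slightly higher in sum. The vesicle release list was at 3938 beside 3344 CPM and 4355 beside 3545 CPM (log2 ratios 0.24, interval 0.11 to 0.36, and 0.30, interval 0.15 to 0.44). The prohormone processing list was at 6513 beside 5468 CPM and 7415 beside 6016 CPM (0.25 and 0.30). The median log2 ratios were 0.25 and 0.36 for vesicle release and 0.05 and 0.19 for prohormone processing, beside 0.19 and 0.21 for all genes. With Neurod6 alone the vesicle release list was at 4093 and 4387 CPM, above the members. With nuclear factor I alone it was at 3592 and 4221 CPM. Of 18 measured genes of vesicle release and 11 of prohormone processing, none was at least 2-fold higher or lower in both libraries. Of 11 measured genes of immature neurons none passed that limit either, and their sum was 14419 CPM in control members beside 14690 CPM in other cells, and 14765 beside 13072 CPM in the Sim1 heterozygous library. Among 13 measured genes of mature neurons, Thy1, a surface glycoprotein of neurons, was higher (139 beside 56.2 CPM and 272 beside 121 CPM) and Nefh was lower.

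Of 27 measured axon guidance genes, 2 were at least 2-fold higher (Sema5a and Epha5) and 2 lower (Epha7 and Efna5) in both libraries, where 2.90% and 0.906% of all genes were. The semaphorin receptors Nrp1 and Nrp2 had lower levels in members, at 139 beside 282 CPM and 43.6 beside 345 CPM for Nrp1, and 109 beside 213 CPM and 87.1 beside 375 CPM for Nrp2. Calcr, the calcitonin receptor, was at 94.8 beside 14.4 CPM in control members and, from 3 UMIs, at 32.7 beside 14.7 CPM in Sim1 heterozygous members.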
